A study of Mus musculus with 7 samples.

Results

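The genes described here are 9 mouse genes of the S100 family of calcium-binding proteins, S100a1, S100a4, S100a6, S100a8, S100a9, S100a10, S100a11, S100a13 and S100a16. They were taken by symbol, matched to the Ensembl mouse identifiers of the deposited table, and make up 9 of its 54532 genes. RNA was sequenced from PanMeso cells, mouse mesothelial cells obtained from the pancreas that express enhanced green fluorescent protein (eGFP). The In Vivo_CT1BA5 group (n = 2) and the In Vivo_BMFA3 group (n = 2) were eGFP+ cells recovered by fluorescence-activated sorting from orthotopic tumours that had grown from PanMeso cells given together with CT1BA5 or BMFA3 pancreatic cancer cells, and the Parental group (n = 3) was the PanMeso line itself. The PanMeso cells recovered from these tumours are called CT1BA5-sorted and BMFA3-sorted cells below, and tumour-sorted cells as a whole. The study concerns how mesothelial cells become cancer-associated fibroblasts in pancreatic cancer. Per the labels, PanMeso cells were kept at 33 °C with 3.3 nM epidermal growth factor, 400 nM hydrocortisone and 870 nM insulin, and were moved to 37 °C for 3 days ahead of an experiment. The labels give no mouse strain, age or time in the animal, and do not say whether the replicates were separate cultures or tumours. The p-values below therefore measure only the spread between these libraries. Growth in an animal, contact with cancer cells and sorting were shared by both tumour-sorted groups, and their parts cannot be told apart.

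S100 proteins are small EF-hand proteins, mostly dimers, that change shape on binding calcium and then hold on to a partner protein. Inside the cell they bind annexins, nonmuscle myosin and other cytoskeletal or signalling proteins, and several are released and act on receptors such as RAGE and Toll-like receptor 4. Most of the family lies in a cluster on mouse chromosome 3 beside the epidermal differentiation genes. S100a4 is widely used as a fibroblast marker, S100a6, S100a10 and S100a11 are abundant in many adherent cells, and S100a8 with S100a9 forms calprotectin, a major cytosolic protein of neutrophils.

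Library totals were 14327365 and 16981596 counts in CT1BA5-sorted cells, 14792189 and 16501058 in BMFA3-sorted cells, and 10096839 to 19210598 in Parental cells. Levels are given in CPM, each gene's count scaled to a common library size, on library sizes scaled by the trimmed mean of M-values (TMM). All 11 mesothelial markers examined, Msln and Upk3b among them, had counts, so the cell type label held in Parental cells, but their summed level was 1108 to 1126 CPM in CT1BA5-sorted cells and 2762 to 2773 CPM in BMFA3-sorted cells, against 13283 to 14668 CPM in Parental cells. Lrrn4 averaged only 0.991 CPM in CT1BA5-sorted cells. By the test described below, all 11 were lower in tumour-sorted cells as a whole than in Parental cells. In that comparison 34.8% of all tested genes were called lower. In BMFA3-sorted cells alone, 10 were lower and 1 did not pass, beside 29.9% of all tested genes called lower. The part of the lower mesothelial markers in the S100 results was not tested. Ribosomal protein genes took 7.54 and 8.68% of counts in CT1BA5-sorted cells, 6.09 and 6.15% in BMFA3-sorted cells and 3.90 to 4.48% in Parental cells. Mitochondrial transcripts took 1.04 and 0.936% in CT1BA5-sorted cells, 0.853 and 0.789% in BMFA3-sorted cells and 0.416 to 0.466% in Parental cells. The part of these shares in the S100 results was not tested either.

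The windows before the transcription start are given for 4 genes chosen for how they changed. S100a8 is shown because it was counted only in tumour-sorted cells, S100a9 because it was not counted at all, S100a4 because it had the largest decrease and S100a11 because it had the smallest decrease in tumour-sorted cells as a whole. The stretch between S100a1 and S100a13 is shown because these genes lie head to head and both were lower. Each window holds the 250 bases before the RefSeq start on GRCm38.p6, read 5′ to 3′ on the strand of the gene, and 8 of the 9 genes had an entry, S100a10 being named only. Capitals mark a TATA box (TATAAA), a C/EBP motif (TTGCNNAA) or an AP-1 motif (TGANTCA).
S100a8 (chr3:90668821-90669070, plus strand): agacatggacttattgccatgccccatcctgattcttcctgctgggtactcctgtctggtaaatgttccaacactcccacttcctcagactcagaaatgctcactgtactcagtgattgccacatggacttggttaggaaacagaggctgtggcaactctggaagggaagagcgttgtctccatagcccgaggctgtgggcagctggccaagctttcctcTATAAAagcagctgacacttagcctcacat
S100a9 (chr3:90695722-90695971, minus strand): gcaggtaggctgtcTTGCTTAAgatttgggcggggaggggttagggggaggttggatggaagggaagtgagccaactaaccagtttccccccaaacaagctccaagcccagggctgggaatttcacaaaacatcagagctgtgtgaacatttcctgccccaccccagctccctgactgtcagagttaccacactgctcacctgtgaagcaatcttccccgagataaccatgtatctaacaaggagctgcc
S100a4 (chr3:90603520-90603769, plus strand): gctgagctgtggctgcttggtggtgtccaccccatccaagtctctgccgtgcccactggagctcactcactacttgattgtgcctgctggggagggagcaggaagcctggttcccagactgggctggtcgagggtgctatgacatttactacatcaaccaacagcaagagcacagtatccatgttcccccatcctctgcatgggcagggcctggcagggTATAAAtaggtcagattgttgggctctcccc
S100a11 (chr3:93520246-93520495, plus strand): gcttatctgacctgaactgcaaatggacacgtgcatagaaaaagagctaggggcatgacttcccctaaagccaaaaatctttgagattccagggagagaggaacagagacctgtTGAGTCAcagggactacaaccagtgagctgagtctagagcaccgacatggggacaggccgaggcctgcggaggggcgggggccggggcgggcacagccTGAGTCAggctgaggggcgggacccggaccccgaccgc
S100a1 to S100a13 gap (chr3:90514393-90514434, plus strand): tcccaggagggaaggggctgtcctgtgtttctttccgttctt

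TATAAA began 30 bases before the start of S100a8 and 31 bases before that of S100a4, and 12.4% of the 32851 RefSeq promoter windows held it. The C/EBP match of S100a9 began 236 bases before its start, and 9.6% of windows held that motif. S100a11 had 2 AP-1 matches, beginning 136 and 38 bases before its start, and a second start of S100a16 had a TGAATCA match at 192 bases; 6.7% of windows held an AP-1 match. A STAT motif (TTCNNNGAA), held by 7.0% of windows, was found in none of the windows of these 8 genes. Both strands were searched, the motifs do not overlap one another here, and a match or its absence describes only the letters of these windows. RefSeq places the start of S100a8 inside the span that the GENCODE annotation gives the gene. The 42 bases between S100a1 and S100a13 had 54.8% G and C.

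The S100 genes as a whole were lower in tumour-sorted cells. Together they took 0.167 and 0.196% of all counts in CT1BA5-sorted cells and 0.214 and 0.217% in BMFA3-sorted cells, against 0.581 to 0.602% in Parental cells. The share was thus lower in each of the 4 tumour-sorted libraries than in any Parental library. Because these are bulk samples, fewer cells carrying an RNA and less of that RNA per cell cannot be told apart. S100a9 had 0 counts in all 7 libraries, and the other 8 passed the filter on low counts, S100a8 through the tumour-sorted libraries alone. With edgeR's quasi-likelihood test and Benjamini-Hochberg adjustment over the 13784 genes tested, the 7 other than S100a8 were all lower in tumour-sorted than in Parental cells, where 69.6% of all tested genes were called (34.8% higher and 34.8% lower). The same 7 were lower in CT1BA5-sorted cells, where 70.7% of all genes were called (35.5% higher and 35.1% lower), and in BMFA3-sorted cells, where 59% were (29.2% higher and 29.9% lower). S100a8 was called higher in each, but a gene that enters the test through the tumour-sorted libraries alone had to differ, so its call is no support. These comparisons share the Parental libraries.

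For each of these 7 genes no tumour-sorted library overlapped a Parental library. Over all genes this held for 55.9% with both tumour-sorted groups at once (27.6% higher and 28.4% lower), for 78.4% in CT1BA5-sorted cells (39.5% higher and 38.9% lower) and for 73.8% in BMFA3-sorted cells (37% higher and 36.8% lower). The median log2 fold change of the 8 tested genes was -1.21 in CT1BA5-sorted cells and -1.09 in BMFA3-sorted cells, against -0.00 and 0.00 for all tested genes, and it was the same with S100a8 set to its lower bound. Without S100a8, the median of the other 7 was -1.28 in CT1BA5-sorted cells and -1.55 in BMFA3-sorted cells.

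**Figure D1:**
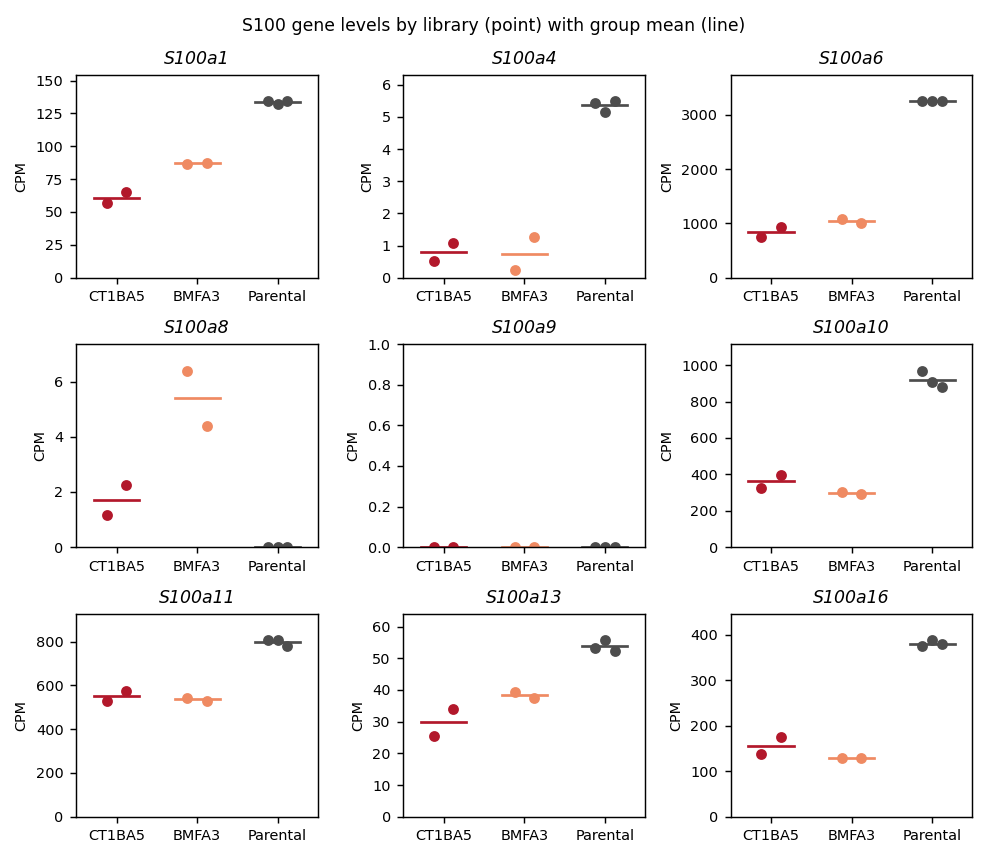
Levels of the 9 S100 genes in CPM on linear axes from 0, with a point for each library and a line at the mean of its group, for CT1BA5-sorted (n = 2), BMFA3-sorted (n = 2) and Parental (n = 3) cells. In 7 panels the Parental points lie above all others, S100a8 is at 0 in Parental cells only, and S100a9 is at 0 in every library.

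S100a8, the other tested gene, had counts in tumour-sorted cells only. It had 18 and 29 counts in CT1BA5-sorted cells, 66 and 105 counts in BMFA3-sorted cells and 0 counts in each Parental library. These correspond to 1.16 and 2.26 CPM in CT1BA5-sorted cells and 4.37 and 6.40 CPM in BMFA3-sorted cells, so all 4 tumour-sorted libraries held it, at a low level. Against a floor of 3 counts over the Parental group, the S100a8 level was at least 25.7-fold higher in cells from CT1BA5 tumours and at least 80.8-fold higher in those from BMFA3 tumours. The bounds rest on Parental depth: without Parental replicate 3, the deepest library, they were 14-fold and 44.2-fold.

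S100a9, which encodes the other subunit of calprotectin and lies 22596 bases from S100a8, was not detected in any library. A count of 0 allows at most 3 counts, which is 0.194 and 0.234 CPM in CT1BA5-sorted cells, 0.183 and 0.199 CPM in BMFA3-sorted cells and 0.147 to 0.276 CPM in Parental cells. Neutrophils are the usual source of both RNAs. None of 12 neutrophil markers passed the filter on low counts, and their summed level was 0.156 to 0.388 CPM in CT1BA5-sorted cells, 0.731 to 1.33 CPM in BMFA3-sorted cells and 0.368 to 0.589 CPM in Parental cells. Ptprc, Itgam, Csf3r, Retnlg and Ngp had 0 counts in all 7 libraries, while Cxcr2 had 6 and 12 counts and Camp 1 and 5 counts in the BMFA3 libraries. The part of neutrophil RNA in the S100a8 level was not tested. Of 12 macrophage markers, C1qa, C1qb, C1qc, Ptprc and Itgam had 0 counts throughout, and 3 passed the filter. Csf1r averaged 5.57 CPM in CT1BA5-sorted cells, 8.29 CPM in BMFA3-sorted cells and 3.37 CPM in Parental cells, and Cd68 averaged 12.8, 12.4 and 10.1 CPM in the same groups. Fcgr3, which passed through the tumour-sorted libraries alone, averaged 8.36, 2.80 and 0.286 CPM. The summed macrophage list was 27.2 to 27.4 CPM in CT1BA5-sorted cells, 23.3 to 25.8 CPM in BMFA3-sorted cells and 12.3 to 15.8 CPM in Parental cells. Its part in the S100a8 level was not tested.

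S100a6, also called calcyclin and often raised in dividing cells, was lower in tumour-sorted cells. It had 757 and 936 CPM in CT1BA5-sorted cells, 1014 and 1071 CPM in BMFA3-sorted cells, against 3245, 3249 and 3252 CPM in Parental cells. The Parental libraries lay close together, and all tumour-sorted libraries lay far below them. The log2 fold change was -1.94 ± 0.08 (SE) in CT1BA5-sorted cells and -1.64 ± 0.08 in BMFA3-sorted cells (adjusted p = 1.54e-14 and 4.00e-13, edgeR), which is 3.84-fold and 3.12-fold lower. Cacybp, the calcyclin-binding protein, was higher in CT1BA5-sorted cells (log2 0.50) and had a log2 fold change of -0.16 in BMFA3-sorted cells that did not pass the test (adjusted p = 0.072, edgeR).

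S100a4, known as fibroblast-specific protein and metastasin, had the largest decrease. It had 0.518 and 1.09 CPM in CT1BA5-sorted cells, 0.244 and 1.26 CPM in BMFA3-sorted cells, against 5.17, 5.43 and 5.49 CPM in Parental cells. The tumour-sorted values rest on 8 and 14 counts in CT1BA5-sorted cells and on 4 and 19 counts in BMFA3-sorted cells, so they are imprecise, though none overlaps the Parental range of 59 to 112 counts. The log2 fold change was -2.77 ± 0.41 (SE) in CT1BA5-sorted cells and -2.86 ± 0.41 in BMFA3-sorted cells (adjusted p = 6.20e-06 and 5.41e-06, edgeR). Single libraries moved these values by over 1.5 times in fold: it was -3.35 without CT1BA5 replicate 2, and in BMFA3-sorted cells -4.41 without replicate 2 and -2.08 without replicate 1, still lower in each case. Of the 584 exon bases of S100a4, 302 (51.7%) are shared with Gm42674, a readthrough gene on the same strand that is listed at 0 counts, and how reads in shared bases were counted is not given in the sources used here. Its level against other genes is therefore uncertain. Fibroblast markers as a list did not fall with it: 6 of 9 tested were higher in tumour-sorted cells, and 2 were lower, Col3a1 and Dcn. Of all tested genes, 34.8% were called higher and 34.8% lower in that comparison. With DESeq2, 5 of the 9 were higher and 2 lower. Among the 6 was Acta2, at 1713 CPM in CT1BA5-sorted cells, 524 CPM in BMFA3-sorted cells and 154 CPM in Parental cells.

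S100a10, the p11 chain that pairs with annexin A2 and lacks calcium control, was also lower. It had 327 and 399 CPM in CT1BA5-sorted cells, 293 and 305 CPM in BMFA3-sorted cells, against 878, 905 and 970 CPM in Parental cells. All 4 tumour-sorted libraries lay below the lowest Parental library. The log2 fold change was -1.34 ± 0.08 (SE) in CT1BA5-sorted cells and -1.62 ± 0.08 in BMFA3-sorted cells (adjusted p = 1.14e-11 and 1.50e-12, edgeR). Its partner Anxa2 changed less, with log2 fold changes of -0.17 ± 0.06 in CT1BA5-sorted cells and -0.34 ± 0.06 in BMFA3-sorted cells. The CPM of S100a10 was 23.9 ± 1.2% of that of Anxa2 in CT1BA5-sorted cells and 22.2 ± 0.496% in BMFA3-sorted cells (SD, n = 2 each), against 53.9 ± 3.56% in Parental cells (SD, n = 3). The ratio compares genes without regard to length, and only its difference between groups can be read.

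S100a11, which pairs with annexin A1, changed least of the 7 lower genes in CT1BA5-sorted cells. It had 531 and 575 CPM in CT1BA5-sorted cells, 531 and 543 CPM in BMFA3-sorted cells, against 780, 806 and 807 CPM in Parental cells. The log2 fold change was -0.53 ± 0.06 (SE) in CT1BA5-sorted cells and -0.57 ± 0.06 in BMFA3-sorted cells (adjusted p = 4.47e-07 and 2.56e-07, edgeR). The groups did not overlap, but the size was only 1.44-fold and 1.49-fold. Its partner Anxa1 was lower by more, with log2 fold changes of -2.45 ± 0.07 in CT1BA5-sorted cells and -1.51 ± 0.06 in BMFA3-sorted cells. The CPM of S100a11 was accordingly 69.6 ± 1.87% of that of Anxa1 in CT1BA5-sorted cells and 35.4 ± 0.412% in BMFA3-sorted cells (SD, n = 2 each), against 18.4 ± 0.654% in Parental cells (SD, n = 3). The ratio to the annexin was thus lower in tumour-sorted cells for S100a10 and higher for S100a11. The processed pseudogene S100a11-ps had 0 counts.

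Annexins, the calcium-dependent membrane-binding proteins, did not move as a family. Of 12 annexin genes, 10 were tested, and 4 were higher and 5 lower in CT1BA5-sorted than in Parental cells, and 2 higher and 5 lower in BMFA3-sorted than in Parental cells. Scaling by library size alone left 2 higher and 5 lower in CT1BA5-sorted cells. Over all tested genes in the TMM fit, 70.7% were called in CT1BA5-sorted cells (35.5% higher and 35.1% lower). In BMFA3-sorted cells 59% were called (29.2% higher and 29.9% lower). Anxa3 averaged 296 CPM in CT1BA5-sorted cells, 247 CPM in BMFA3-sorted cells and 1091 CPM in Parental cells. Anxa6 went the other way, with 553 CPM in CT1BA5-sorted cells, 389 CPM in BMFA3-sorted cells and 167 CPM in Parental cells, a log2 fold change of 1.73 in CT1BA5-sorted cells and 1.22 in BMFA3-sorted cells.

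**Figure D2:**
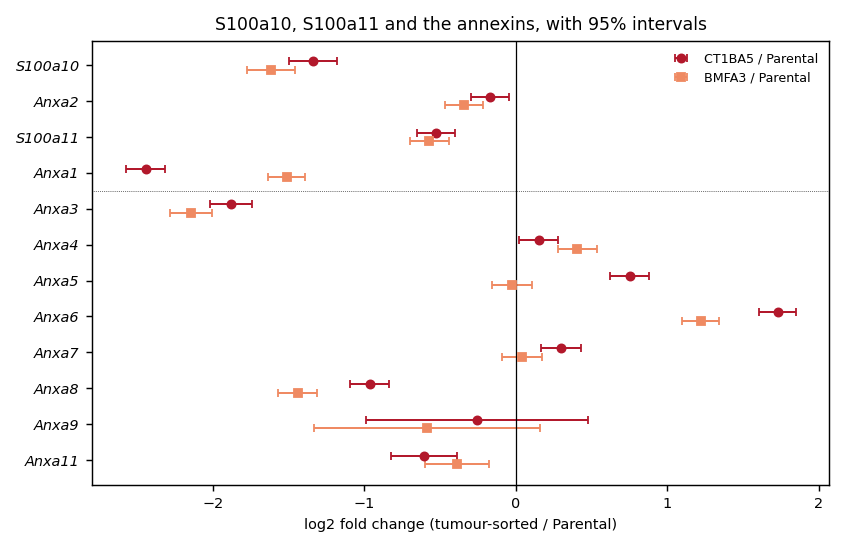
Log2 fold change against Parental cells of S100a10, S100a11, their partners Anxa2 and Anxa1 and the other tested annexins, with circles for CT1BA5-sorted cells, squares for BMFA3-sorted cells and bars for 95% intervals from the edgeR fit. S100a10 lies well below Anxa2 and S100a11 lies above Anxa1, while Anxa6 is the annexin with the largest increase.

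S100a1, best known in heart muscle where it acts on calcium release and uptake, was moderately lower. It had 56.6 and 65.3 CPM in CT1BA5-sorted cells, 86.9 and 87.3 CPM in BMFA3-sorted cells, against 132, 134 and 134 CPM in Parental cells. The 3 groups formed separate steps with no overlap. The log2 fold change was -1.14 ± 0.07 (SE) in CT1BA5-sorted cells and -0.62 ± 0.07 in BMFA3-sorted cells (adjusted p = 4.03e-11 and 3.31e-07, edgeR). S100a13, which helps export fibroblast growth factor 1 and interleukin 1 alpha without a signal peptide, lies head to head with S100a1 on the opposite strand, with 42 bases between their starts in GENCODE. It had 25.5 and 34.1 CPM in CT1BA5-sorted cells, 37.6 and 39.4 CPM in BMFA3-sorted cells, against 52.2, 53.4 and 55.7 CPM in Parental cells, the same order of groups as S100a1. Its log2 fold change was -0.86 ± 0.10 in CT1BA5-sorted cells and -0.48 ± 0.10 in BMFA3-sorted cells (adjusted p = 3.73e-07 and 0.000336, edgeR). The annotated exons of the pair do not overlap.

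S100a16, a broadly expressed family member linked to fat cell formation in mice, was lower as well. It had 139 and 175 CPM in CT1BA5-sorted cells, 130 CPM in both BMFA3 libraries, and 375, 379 and 389 CPM in Parental cells. Again every tumour-sorted library was below every Parental library. The log2 fold change was -1.28 ± 0.08 (SE) in CT1BA5-sorted cells and -1.55 ± 0.08 in BMFA3-sorted cells (adjusted p = 2.51e-11 and 3.21e-12, edgeR).

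The tumour-sorted groups were then compared with each other. Between CT1BA5-sorted and BMFA3-sorted cells, 6 of the 8 tested genes differed, 2 as higher and 4 as lower in CT1BA5-sorted cells, where 50.8% of all tested genes were called (25.5% higher and 25.3% lower). The libraries of the same 6 did not overlap, as for 74.5% of all genes (37% higher and 37.4% lower). The median log2 fold change of the 8 was -0.13, against -0.01 for all tested genes. S100a8 differed most, at -1.68 ± 0.37 (SE), and lay between -2.20 and -1.25 with any 1 library left out. S100a1 (-0.52 ± 0.08), S100a13 (-0.38 ± 0.11) and S100a6 (-0.30 ± 0.08) were also lower in CT1BA5-sorted cells, while S100a10 (0.28 ± 0.08) and S100a16 (0.27 ± 0.09) were higher there. S100a4 (0.09 ± 0.58) and S100a11 (0.04 ± 0.07) did not pass the test (adjusted p = 0.910 and 0.631, edgeR), with 95% intervals of -1.05 to 1.24 and -0.09 to 0.18, so a difference in S100a4 of more than 2-fold either way lies within its interval.

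Differences of this size between the tumour-sorted groups were less stable than those against Parental cells. CT1BA5 replicate 2 had the higher level of the CT1BA5 libraries for all 8 detected genes. Without it, S100a10 was at 0.13 and S100a16 at 0.10, and neither passed the test (adjusted p = 0.173 and 0.307, edgeR). Without CT1BA5 replicate 1, S100a13 was at -0.18 (adjusted p = 0.167, edgeR). Without BMFA3 replicate 2, S100a10 and S100a16 did not pass, and without BMFA3 replicate 1, S100a13 and S100a16 did not (adjusted p between 0.0657 and 0.107, edgeR). Scaling by library size alone, which moves the median of all genes by -0.16 in this comparison, put S100a10 at 0.12 and S100a16 at 0.11 (adjusted p = 0.243 and 0.289, edgeR). S100a1, S100a6 and S100a8 passed in each of these refits.

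**Figure D3:**
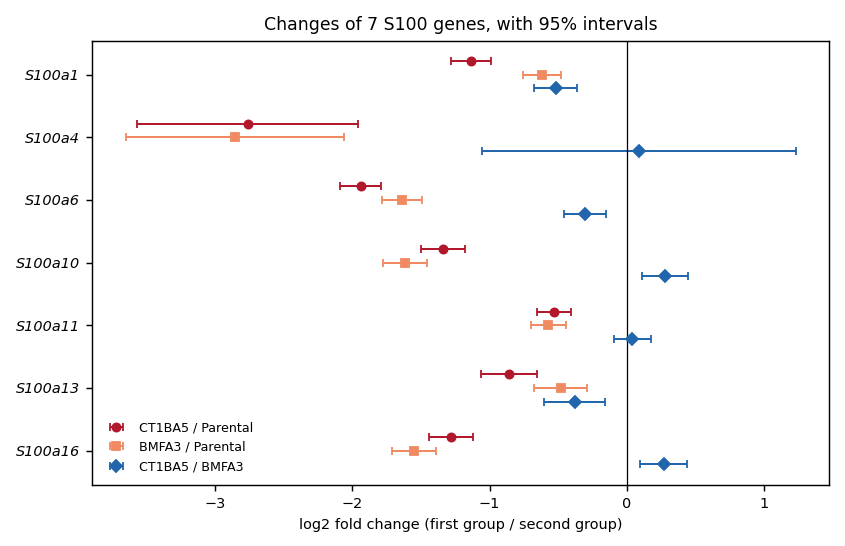
Log2 fold change of 7 S100 genes for CT1BA5-sorted against Parental cells (circles), BMFA3-sorted against Parental cells (squares) and CT1BA5-sorted against BMFA3-sorted cells (diamonds), with 95% intervals from the edgeR fit on all 7 libraries. The circles and squares all lie below 0, and S100a4 has the widest intervals; S100a8 is left out because its Parental level was 0, and S100a9 because it had no counts.

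The genes were ordered by level per length, as CPM per kb of exon. In CT1BA5-sorted cells the order was S100a11 (1082 ± 61.3 CPM per kb, SD), S100a6 (619 ± 92.4), S100a10 (299 ± 42.0), S100a16 (97.0 ± 15.6), S100a1 (87.9 ± 8.89), S100a13 (41.7 ± 8.52), S100a8 (2.47 ± 1.11) and S100a4 (1.38 ± 0.693). The libraries of S100a16 and S100a1 overlapped, as did those of S100a8 and S100a4. In BMFA3-sorted cells S100a11 (1050 ± 16.9) again stood above S100a6 (763 ± 29.6) and S100a10 (247 ± 6.62), and S100a1 (126 ± 0.483) above S100a16 (80.4 ± 0.0196). In Parental cells S100a6 led (2376 ± 2.28), followed by S100a11 (1561 ± 30.6), S100a10 (757 ± 38.9), S100a16 (236 ± 4.40), S100a1 (193 ± 1.70), S100a13 (75.2 ± 2.50) and S100a4 (9.18 ± 0.296), with no overlap between neighbours. S100a11 was thus the leading S100 RNA per length in tumour-sorted cells and S100a6 in Parental cells. Of the summed CPM of the 9 genes, S100a6 made up 41.2 and 42.8% in CT1BA5-sorted cells, 48.3 and 49.1% in BMFA3-sorted cells and 58.1 to 59.3% in Parental cells, while S100a11 made up 26.3 and 28.9%, 24.9 and 25.3%, and 14.2 to 14.6% in the same groups. These shares disregard length, and only their difference between groups can be read.

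All 9 genes lie on chromosome 3 (GRCm38). S100a1 (ENSMUSG00000044080, chr3:90511034-90514392), S100a13 (ENSMUSG00000042312, chr3:90514435-90524581) and S100a16 (ENSMUSG00000074457, chr3:90537254-90543151) come first. S100a4 (ENSMUSG00000001020, chr3:90603771-90606045), S100a6 (ENSMUSG00000001025, chr3:90612882-90624181), S100a8 (ENSMUSG00000056054, chr3:90668978-90670035) and S100a9 (ENSMUSG00000056071, chr3:90692632-90695721) follow. S100a11 (ENSMUSG00000027907, chr3:93520488-93526287) and S100a10 (ENSMUSG00000041959, chr3:93555080-93564643) lie 2824766 bases farther on. S100a1 and S100a9 are on the minus strand and the others on the plus strand.

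Genes around them moved in both directions. Of 11 other protein-coding genes within 100 kb, 6 were tested, and in tumour-sorted against Parental cells 1 was higher, Chtop (log2 0.29 ± 0.06, SE), and 3 were lower, Npr1 (-4.19 ± 0.12), Tchh (-2.61 ± 0.24) and Ints3 (-0.66 ± 0.06). Scaling by library size alone left 0 higher and 4 lower of these 6. Over all tested genes in the TMM fit, 69.6% were called in that comparison (34.8% higher and 34.8% lower). Npr1, the receptor for atrial natriuretic peptide, averaged 1.53 CPM in CT1BA5-sorted cells, 3.23 CPM in BMFA3-sorted cells and 41.0 CPM in Parental cells. Among other members of the S100 family, 3 could be tested. All 3 were lower, S100a3 (-2.67 ± 0.30), S100a14 (-2.29 ± 0.43) and S100a7a (-1.34 ± 0.43), where 34.8% of all tested genes were called lower. S100a14 and S100a7a passed the filter on low counts through the Parental libraries alone, so their calls are no support. All 3 were rare, with S100a3 at 0.616 CPM in CT1BA5-sorted cells, 0.730 CPM in BMFA3-sorted cells and 4.35 CPM in Parental cells. S100a3 also shares 144 exon bases with the same readthrough gene as S100a4. With DESeq2, 2 of the 3 were lower in CT1BA5-sorted cells and 2 in BMFA3-sorted cells. S100a5, S100g and S100z had 0 counts.

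**Figure D4:**
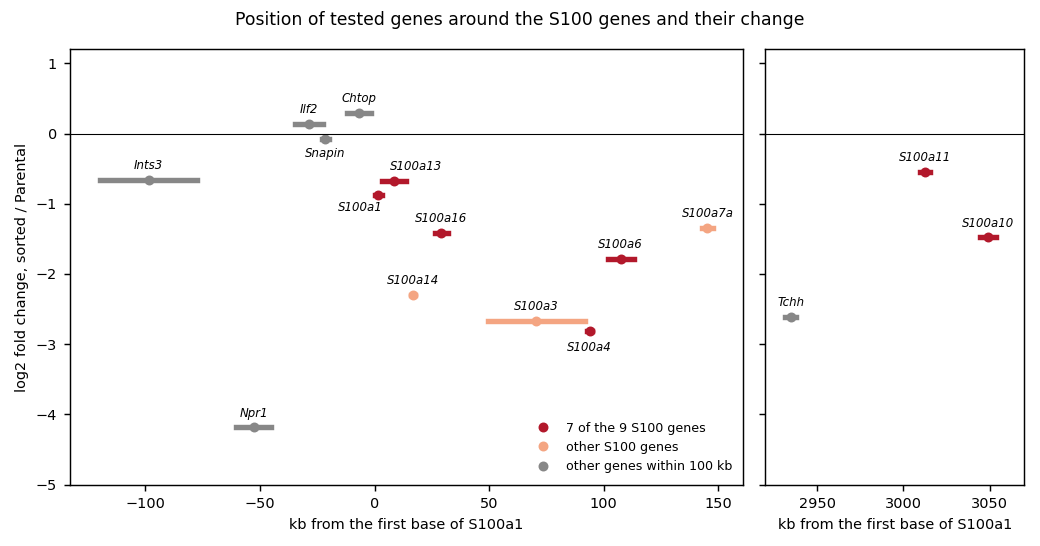
Log2 fold change of tumour-sorted (mean of both groups) against Parental cells by position on chromosome 3, in kb from the first base of S100a1, for 7 of the 9 S100 genes, other tested S100 genes and other tested genes within 100 kb; bars span each gene, and the axis is broken between the panels. The S100 genes shown all lie below 0 with S100a4 lowest, while Chtop, beside S100a1, lies above 0 and Npr1 lies farthest below it. S100a8, which was higher in tumour-sorted cells, is left out because its Parental level was 0, and S100a9 because it had no counts.

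Cell surface receptors for S100 proteins were counted next. Of 10 receptor and adaptor genes, 9 were tested, with 3 higher and 2 lower in CT1BA5-sorted cells and 2 higher and 3 lower in BMFA3-sorted cells, against Parental cells, where 70.7% and 59% of all tested genes were called. With library size alone it was 3 and 5 in CT1BA5-sorted cells, and 2 and 3 in BMFA3-sorted cells. The share called is thus no larger than that of all genes in the TMM fit. Tlr4, a receptor of S100a8 and S100a9, had 17.1 ± 3.22 CPM in CT1BA5-sorted cells, 43.7 ± 4.48 CPM in BMFA3-sorted cells and 85.8 ± 2.31 CPM in Parental cells (SD), a log2 fold change of -2.32 in CT1BA5-sorted cells and -0.97 in BMFA3-sorted cells. Emb, or embigin, was higher, with 25.3 CPM in CT1BA5-sorted cells, 38.5 CPM in BMFA3-sorted cells and 11.1 CPM in Parental cells, and Bsg, or basigin, was higher by log2 0.51 and 0.60. They encode related immunoglobulin-type membrane proteins, and basigin is reported to bind S100A9. Ager, which encodes RAGE, had under 1 CPM in every group mean (0.331, 0.564 and 0.777 CPM in CT1BA5-sorted, BMFA3-sorted and Parental cells) and did not pass the test (adjusted p = 0.090 in CT1BA5-sorted and 0.54 in BMFA3-sorted cells, edgeR). Mcam, another membrane protein reported to bind S100A8 and S100A9, had 52.8 CPM in CT1BA5-sorted cells, 16 CPM in BMFA3-sorted cells and 34.4 CPM in Parental cells. It was higher in CT1BA5-sorted and lower in BMFA3-sorted cells than in Parental cells.

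The plasminogen system, which the annexin A2 and S100a10 complex is known to assist at the cell surface, was counted as well. Of 6 genes listed, 4 were tested, and 4 were higher in CT1BA5-sorted cells and 3 in BMFA3-sorted cells than in Parental cells. Of all tested genes, 35.5% were called higher in CT1BA5-sorted cells and 29.2% in BMFA3-sorted cells. Plat, tissue plasminogen activator, averaged 331 CPM in CT1BA5-sorted cells, 288 CPM in BMFA3-sorted cells and 152 CPM in Parental cells. Plau, urokinase, was higher in CT1BA5-sorted cells (log2 0.94) and had a log2 fold change of -0.05 in BMFA3-sorted cells that did not pass the test (adjusted p = 0.57, edgeR). Plg, plasminogen itself, had 0 counts.

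Among 8 intracellular partners of S100 proteins, all tested, 4 were higher and 3 lower in CT1BA5-sorted cells, and 3 were higher and 3 lower in BMFA3-sorted cells, against Parental cells. With library size alone it was 4 and 4 in CT1BA5-sorted cells, and 1 and 4 in BMFA3-sorted cells. In the TMM fit, 70.7% of all tested genes were called in CT1BA5-sorted cells (35.5% higher and 35.1% lower). The share was 59% in BMFA3-sorted cells (29.2% higher and 29.9% lower). Ahnak, the giant scaffold bound by S100a10 and annexin A2, had the largest change, with 136 ± 16.4 CPM in CT1BA5-sorted cells, 247 ± 7.58 CPM in BMFA3-sorted cells and 775 ± 87.3 CPM in Parental cells (SD). Myh9, the nonmuscle myosin heavy chain bound by S100a4, had 1682 CPM in CT1BA5-sorted cells, 1263 CPM in BMFA3-sorted cells and 1049.7 CPM in Parental cells, and was higher by log2 0.68 in CT1BA5-sorted cells.

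For the 6 S100 genes that averaged 10 CPM or more, the genes with the most similar profile were found among 8969 candidates, as the smallest root mean square difference of centred log2 CPM over the 7 libraries. Spc25, a kinetochore component, was nearest to S100a10 (difference 0.056) and to S100a16 (0.080), and averaged 13.4 CPM in CT1BA5-sorted cells, 11.7 CPM in BMFA3-sorted cells and 35.0 CPM in Parental cells. Mcm7, part of the replicative helicase, was nearest to S100a6 (0.072), with 55.4, 63.4 and 202 CPM in the same groups, followed by Ercc6l (0.081). Tfdp2 and Klhl2 were nearest to S100a1 (0.052 and 0.052), Ift57 and Sart3 to S100a13 (0.052 and 0.088), and Fuca1 and Lnpk to S100a11 (0.029 and 0.035). The second nearest were Tubb4b for S100a10 (0.086) and Pkp4 for S100a16 (0.081). With 8969 candidates and only 7 libraries in 3 groups, a close match is easily found. A shared function of the matched genes was not tested.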

How the data were processed

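Per the labels' protocols, the 7 PanMeso libraries were standard Illumina libraries from RNA isolated with an RNeasy Mini Kit. The deposited values are raw counts per Ensembl gene, whole numbers with a column for each library. CASAVA, DESeq2 1.24.0 and mm10 are named per the submitters' processing notes, with no role. Not given in the sources used here are the aligner, the counter, the annotation release and whether strand was used.

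Of 54532 identifiers, 54495 matched GENCODE M21 (GRCm38), the source of symbols, coordinates and exon lengths. filterByExpr (minimum count 10) kept 13784 genes. TMM factors were 0.897 to 1.08. A negative binomial model with 3 groups was fitted to all 7 libraries with edgeR 4.0.16 under R 4.3.3. Its quasi-likelihood tests were adjusted by Benjamini-Hochberg over all tested genes, with a threshold of 0.05, and the common biological coefficient of variation came to 0.083. SE were worked out as the size of the log2 fold change over the square root of the F statistic of those tests. The 95% intervals use the normal distribution, so they are approximate and narrower than intervals from a t distribution. "Tumour-sorted" is the unweighted mean of the CT1BA5 and BMFA3 groups. Floors of 3 counts cover counting error only. The fit was tested on simulated data.

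The genes described, the marker, partner and receptor lists and the tests were chosen with earlier results of these data known, so no list is independent support. The named genes were the 9 S100 genes, genes of those lists, protein-coding genes within 100 kb and, for S100 genes averaging at least 10 CPM, the 2 most similar genes. A member of the plasminogen list is not reported here. S100a2 was added to the other S100 genes after the annotation was read. Within groups, libraries differed by 4.70 (CT1BA5), 2.19 (BMFA3) and 2.29 to 3.08 (Parental) times the variance of sampling noise. None was thus a copy of another library. These values cannot tell whether the replicates came from separate cultures or tumours. Alternatives were RLE scaling, library size alone, other filters, adjusted p of 0.01, glmTreat, DESeq2 1.42.0, limma-voom (limma 3.58.1), only the groups compared, a replicate block and each library left out.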

Additional observations from a re-analysis of the deposited data

Results flagged for a closer look

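For 6 S100 genes the change against Parental cells differed between the tumour-sorted groups by the test of the difference itself, CT1BA5-sorted against BMFA3-sorted (edgeR, log2 scale). S100a1 was at -0.52, S100a6 at -0.3, S100a13 at -0.38 and S100a8 at -1.68, all lower in CT1BA5-sorted cells. S100a10 was at 0.28 and S100a16 at 0.27, both higher in CT1BA5-sorted cells. The differences of S100a10, S100a13 and S100a16 did not pass the test without some single libraries, as given with their values. Among all tested genes, 50.8% were called in the same comparison.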

How the results depend on the processing

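Across 17 alternatives, 536 values of single S100 genes were recomputed: 506 kept their direction and their side of the threshold, 25 kept their direction but no longer passed, and 5 changed sign. The S100 genes counted in this section include S100a8, whose call against Parental cells is no support. In CT1BA5-sorted, BMFA3-sorted and all tumour-sorted cells against Parental cells, 8 of 8 tested genes were called under each alternative except glmTreat. The glmTreat test asks for more than a 2-fold change. It called 6 in CT1BA5-sorted, 5 in BMFA3-sorted and 5 in tumour-sorted cells, leaving out S100a11 and S100a13 in each and S100a1 in the last 2, and 0 between CT1BA5-sorted and BMFA3-sorted cells. Over all genes it called 3010 in CT1BA5-sorted, 1706 in BMFA3-sorted and 2370 in tumour-sorted cells against Parental cells and 875 between the tumour-sorted groups, where the main counts were 9743, 8135, 9599 and 7008, because small changes do not count. Library size alone moved the split of all genes to 3495 higher and 6280 lower in CT1BA5-sorted cells (main 4899 and 4844), 3444 and 4672 in BMFA3-sorted cells (main 4020 and 4115), 3600 and 5964 in tumour-sorted cells (main 4797 and 4802), and 2371 and 4740 between the tumour-sorted groups (main 3521 and 3487). It moved the median of all genes by -0.23, -0.07, -0.15 and -0.16 in the same order.

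The 5 sign changes were in CT1BA5-sorted against BMFA3-sorted cells, for the 2 genes that had not passed there. S100a4 was at -0.067 and S100a11 at -0.11 with library size alone. With single libraries left out, S100a4 ranged from -0.68 to 1.64 and S100a11 from -0.016 to 0.099. The cause was not tested. S100 genes called between the tumour-sorted groups ranged from 4 to 6 with a library left out, and all genes from 5527 to 7016. Genes called against Parental cells ranged from 9045 to 9647 in CT1BA5-sorted, 6675 to 8621 in BMFA3-sorted and 8712 to 9675 in tumour-sorted cells. Where a group was left with 1 library, that library was assumed to vary like the others. S100a16 between the tumour-sorted groups also did not pass at 0.01 (adjusted p = 0.0136, edgeR) or with only those groups fitted (adjusted p = 0.0522, edgeR). The labels do not say whether replicate numbers pair the samples. Same-numbered libraries correlated at -0.170 to 0.115 in their deviations from the group mean. In a group of 2 these deviations mirror each other, so the correlations cannot decide whether samples were paired. A fit with a replicate block called 8867, 7044, 8494 and 6478 genes in the order above and 8, 8, 8 and 6 S100 genes. Low counts limit S100a4 and S100a8, and S100a9 could not be assessed below 3 counts a library.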

Other observations

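Other EF-hand genes moved in both directions. Of 21 listed, 20 were tested, with 13 higher and 4 lower in CT1BA5-sorted than in Parental cells, and 7 higher and 8 lower in BMFA3-sorted than in Parental cells. With library size alone the counts were 8 and 6 in CT1BA5-sorted cells, and 5 and 10 in BMFA3-sorted cells. Of all tested genes, 35.5% were called higher and 35.1% lower in CT1BA5-sorted cells in the TMM fit. In BMFA3-sorted cells these shares were 29.2% and 29.9%. The reticulocalbins, calcium-binding proteins of the secretory pathway, were higher in both: Rcn3 averaged 653 CPM in CT1BA5-sorted cells, 376 CPM in BMFA3-sorted cells and 140 CPM in Parental cells, and Rcn1 averaged 356, 236 and 113 CPM in the same groups. Calm3, a calmodulin gene, averaged 508 CPM in CT1BA5-sorted cells, 394 CPM in BMFA3-sorted cells and 300.1 CPM in Parental cells. Tesc, which encodes tescalcin, was lower, with 2.90 CPM in CT1BA5-sorted cells, 2.80 CPM in BMFA3-sorted cells and 12.3 CPM in Parental cells. Between the tumour-sorted groups, 17 of the 20 were higher and 1 was lower in CT1BA5-sorted than in BMFA3-sorted cells. Of all tested genes, 25.5% were called higher and 25.3% lower there. With library size alone, 13 of the 20 were higher and 1 was lower.

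Of 7 fused-type S100 genes, which join an S100 domain to a long repeat and belong to skin barrier formation, Tchh (trichohyalin) was the only one with enough counts to test. It averaged 1.30 CPM in CT1BA5-sorted cells, 3.11 CPM in BMFA3-sorted cells and 12.4 CPM in Parental cells. Of 11 epithelial tumour markers, 7 were tested, and 5 were lower and 0 higher in tumour-sorted than in Parental cells. Of all tested genes, 34.8% were called lower in that comparison. In each tumour-sorted group alone against Parental cells, 5 of the 7 markers were lower and 1 was higher. The shares over all tested genes were 35.1% lower and 35.5% higher in CT1BA5-sorted cells, and 29.9% and 29.2% in BMFA3-sorted cells. In CT1BA5-sorted against BMFA3-sorted cells, 3 of the 7 were higher and 4 lower, beside 25.5% and 25.3% of all tested genes. The summed list was 225 to 250 CPM in CT1BA5-sorted cells, 339 to 345 CPM in BMFA3-sorted cells and 1477 to 1610 CPM in Parental cells. Several of these are keratins that mesothelial cells also express, and Epcam was at 0.324, 0.0941 and 0.0307 CPM in the same groups. Of 7 endothelial markers only Kdr was tested, with 14.6 CPM in CT1BA5-sorted cells, 23.3 CPM in BMFA3-sorted cells and 99.3 CPM in Parental cells.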
